A study of Mus musculus with 18 samples.

Results

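The 10 genes described here encode inhibitors, cofactors and signalling adaptors that act on NF-kB, the transcription factor family that Toll-like receptor signals release into the nucleus. They are Nfkbia, Nfkbib, Nfkbie, Nfkbiz, Nfkbid, Bcl3, Tnfaip3, Tnip1, Traf1 and Birc3. Every probe set that the platform annotation assigned to one of these symbols alone was taken, which gave 10 of the 18194 genes with a probe set of their own and 21 of the 45101 probe sets on the array, and all 21 were among the 27062 tested. Nfkbia had 5 probe sets, Nfkbiz 3, and Nfkbib, Nfkbie, Tnfaip3, Traf1 and Birc3 2 each, while Nfkbid, Bcl3 and Tnip1 had 1. A probe set is a group of short oligonucleotides that read 1 transcript region, and its signal is a brightness on a linear scale.

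The cells were bone-marrow-derived macrophages of IL-10 -/- mice, which lack a working gene for the cytokine IL-10, so every group carried this defect. They had been cultured for 7 days in DMEM with serum and CSF-1 from L-cell conditioned medium, and were then treated without CSF-1. The groups were LPS plus IL-10 (10 ng/ml of IL-10) for 10, 20 or 30 min and LPS alone for 10, 20 or 30 min. LPS was given at 100 ng/ml throughout, and there were 3 arrays in each of the 6 groups, 18 in all. Per the labels, each replicate number was a complete experiment of its own, run in sequence on age- and sex-matched mice, so replicates are called experiments 1, 2 and 3 here. LPS is the bacterial lipid that activates Toll-like receptor 4, and IL-10 restrains macrophage activation. The mice's age and sex, and how many gave cells to an experiment, were not given in the sources used here. Untreated cells were not analysed here, so each value compares times or treatments.

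In resting macrophages NF-kB dimers are held in the cytoplasm by IkB proteins. The receptor's signal leads to the phosphorylation and destruction of IkB-alpha, the product of Nfkbia, and the freed dimers switch on Nfkbia itself and other inhibitors, which closes a feedback loop. A second layer acts upstream, where A20, the product of Tnfaip3, edits ubiquitin chains on the adaptors that carry the signal.

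Promoter windows of 4 of these genes are shown because NF-kB is known to act through such windows on some genes of this group. The sequences are the 250 bases before the gene start in RefSeq, build GRCm38.p6, read 5′ to 3′ on the gene's strand, with capitals at matches to the kappaB consensus, the 10-base motif of NF-kB, on either strand. Tnfaip3 is read from chr10:19015411-19015660 and Nfkbia from chr12:55492648-55492897, both on the minus strand. Nfkbie is read from chr17:45555450-45555699 on the plus strand and Nfkbib from chr7:28766645-28766894 on the minus strand.
Tnfaip3: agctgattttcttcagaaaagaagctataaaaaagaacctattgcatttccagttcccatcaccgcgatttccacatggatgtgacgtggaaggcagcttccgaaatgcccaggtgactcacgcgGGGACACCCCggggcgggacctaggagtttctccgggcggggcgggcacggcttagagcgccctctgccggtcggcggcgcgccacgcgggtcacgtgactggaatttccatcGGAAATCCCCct
Nfkbia: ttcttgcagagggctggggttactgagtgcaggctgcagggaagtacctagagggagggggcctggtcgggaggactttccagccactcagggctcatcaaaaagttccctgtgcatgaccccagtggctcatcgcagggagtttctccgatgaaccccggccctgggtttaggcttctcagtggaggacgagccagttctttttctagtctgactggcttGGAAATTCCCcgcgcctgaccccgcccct
Nfkbie: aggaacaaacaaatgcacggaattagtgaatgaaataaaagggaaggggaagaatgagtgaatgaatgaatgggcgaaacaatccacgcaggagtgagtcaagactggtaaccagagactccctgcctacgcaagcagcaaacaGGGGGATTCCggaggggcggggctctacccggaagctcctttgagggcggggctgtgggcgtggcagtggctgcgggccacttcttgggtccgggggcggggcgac
Nfkbib: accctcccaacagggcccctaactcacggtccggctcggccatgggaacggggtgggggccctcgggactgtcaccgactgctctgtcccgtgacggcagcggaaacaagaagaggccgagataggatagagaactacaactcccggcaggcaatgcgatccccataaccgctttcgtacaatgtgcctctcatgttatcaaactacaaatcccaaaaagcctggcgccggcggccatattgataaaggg

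The Tnfaip3 window shown held matches at bases -125 to -116 and -12 to -3 from the start. The Nfkbia window held 1 at -29 to -20, the Nfkbie window 1 at -106 to -97, and the Nfkbib window none. RefSeq gave windows of 250 bases before and 50 after a start for 9 of the 10 genes, 12 windows in all. Nfkbiz had no window and was not searched. Of the 12 windows 6 held a match, against 8.46% of the 32851 windows in the table. The other 3 were 1 window each of Bcl3, Nfkbid and Tnip1. The windows of Traf1 and Birc3, another window of Tnfaip3 and the other windows of Nfkbid had none. In the same build Nfkbiz lies at chr16:55811375-55838954, Tnfaip3 at chr10:19000910-19015410, Traf1 at chr2:34941750-34961812 and Nfkbia at chr12:55489409-55492647. A match is a stretch of letters, and no binding was measured in these arrays.

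Nfkbiz, Tnfaip3 and Traf1 were the members with the largest changes in signal. Averaged over both treatments, their brightest probe sets had 2.17-fold, 1.71-fold and 2.76-fold the signal at 30 min that they had at 10 min. The very bright probe set of Nfkbia had 1.05-fold. Changes are given as log2 values on the scale of log2(signal + 16), with SEs and 95% intervals from limma. The labels and the data pair the arrays by experiment. In the fit without a block for the experiment no member passed an adjusted p of 0.05 in any of the 10 comparisons made. With the experiment as a block, which compares arrays of the same experiment with each other, 8 of the 21 probe sets, of 4 genes, passed at 30 against 10 min averaged over treatments, against 0.351% of all tested probe sets higher at 30 min by that rule and 0.0554% without the block. At an unadjusted p under 0.05 the counts were 14 with the block and 5 without it, all higher at 30 min, against 7.16% and 2.72% of all tested probe sets in either direction.

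**Figure D1:**
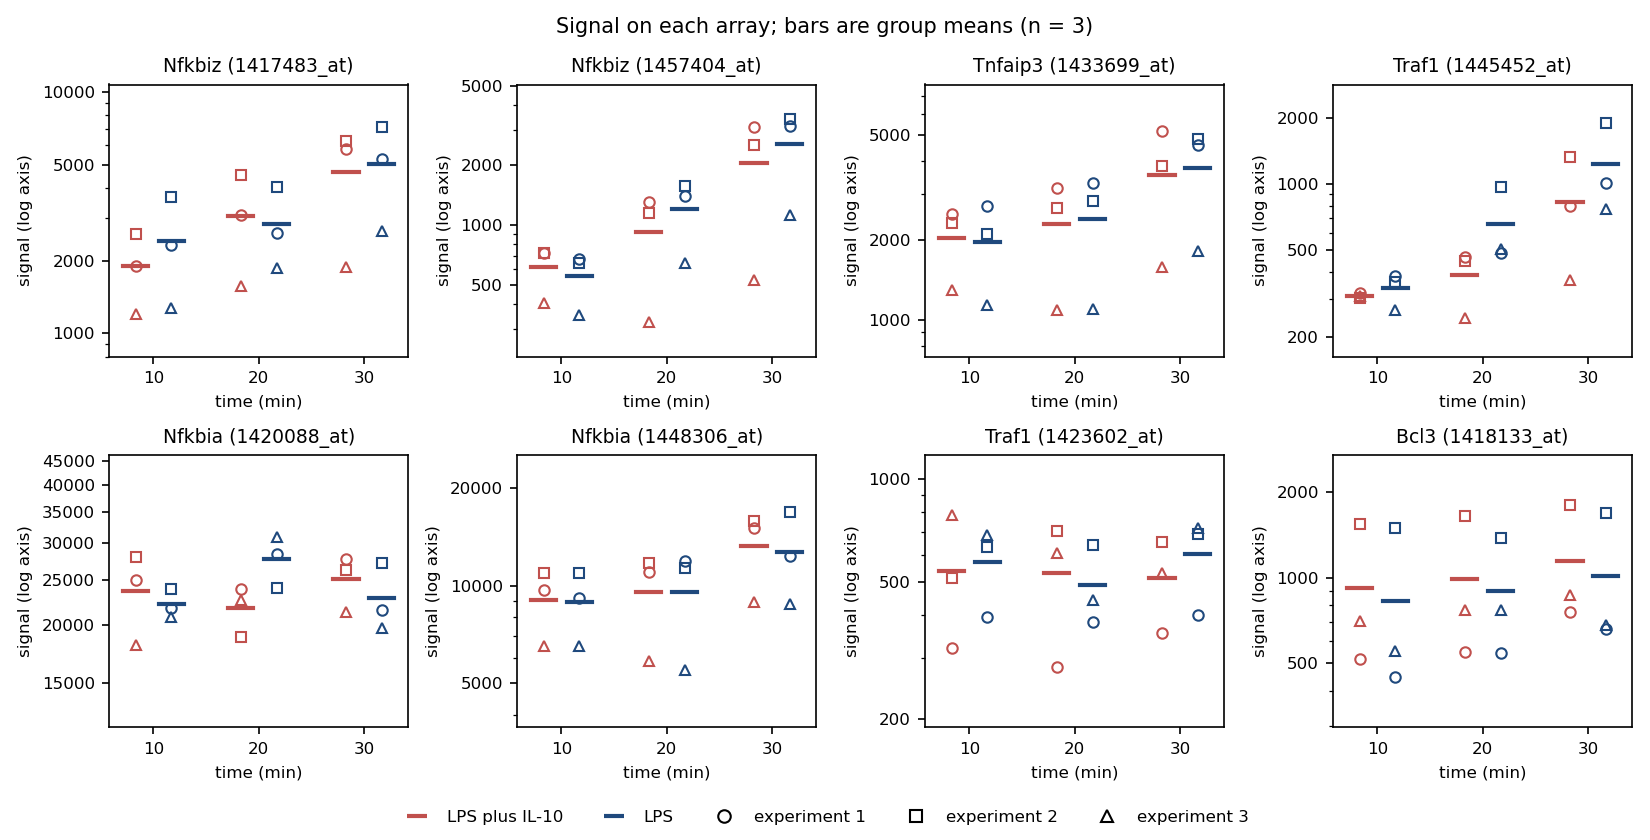
Signal (log axis, arbitrary units of the deposited scale) of 8 probe sets against time in min, with LPS plus IL-10 left of LPS at each time, 1 symbol for each experiment and bars at the means of 3 arrays. Nfkbiz, Tnfaip3 and Traf1 1445452_at climb towards 30 min, while Nfkbia 1420088_at stays between 18125 and 30887, and Bcl3 separates by experiment.

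Nfkbiz encodes IkB-zeta, a nuclear IkB protein that binds NF-kB p50 and acts as a cofactor for secondary response genes such as Il6. With LPS plus IL-10 its brightest probe set, 1417483_at, had signals of 1892, 2581 and 1199.7 at 10 min, 3076, 4508 and 1563 at 20 min, and 5789, 6287 and 1873 at 30 min, in experiments 1, 2 and 3 in that order. With LPS alone the signals were 2327, 3653 and 1277 at 10 min, 2590.2, 4028 and 1856 at 20 min, and 5268, 7154 and 2640.0 at 30 min. Within every experiment and treatment the array of 30 min was brighter than that of 10 min, and experiment 3 was the dimmest in all 6 groups. The mean change at 30 against 10 min was 1.12 (SE 0.10, n = 3 experiments under each treatment, adjusted p = 9.1e-06 in limma with the block and 1.0 without it).

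The other probe sets of Nfkbiz rose as well. Probe set 1457404_at had signals of 721, 723 and 403 at 10 min, 1297, 1150.3 and 326 at 20 min, and 3121, 2511 and 526 at 30 min with LPS plus IL-10. With LPS alone it had 671, 641 and 353 at 10 min, 1395, 1567 and 643 at 20 min, and 3155, 3387 and 1121 at 30 min. Its 30 min arrays with LPS alone were all brighter than all its 10 min arrays, whereas with LPS plus IL-10 the 30 min array of experiment 3 lay within the range of the 10 min arrays. It rose by 1.74 on average (SE 0.17, limma adjusted p with the block 1.3e-05), and 1448728_a_at, which had 334 to 1702 over the 18 arrays, rose by 1.04 (SE 0.13, 0.000248).

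Tnfaip3 encodes A20, the ubiquitin-editing enzyme that shuts down Toll-like and TNF receptor signals. Probe set 1433699_at had signals of 2517, 2318 and 1305 at 10 min, 3154, 2663 and 1093 at 20 min, and 5174, 3822 and 1594 at 30 min with LPS plus IL-10. It had 2691, 2111 and 1143 at 10 min, 3305, 2824 and 1101 at 20 min, and 4605, 4836 and 1824 at 30 min with LPS alone. All 6 pairs of arrays were higher at 30 than at 10 min, but the arrays of experiment 3 were so much dimmer that the groups overlapped. The mean change was 0.78 (SE 0.091, limma adjusted p with the block 0.000132). A dimmer probe set, 1450829_at, had 63.5 to 2434 and rose by 1.34 (SE 0.21, 0.00351), and it was below the array's median signal on 2 of the 18 arrays.

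Traf1 encodes an adaptor of the TNF receptor family that is itself a known NF-kB target, and its probe sets went different ways. Probe set 1445452_at had signals of 318, 304 and 309 at 10 min, 468, 446 and 245 at 20 min, and 798, 1336 and 365 at 30 min with LPS plus IL-10. With LPS alone it had 382, 359 and 268 at 10 min, 487, 976 and 509 at 20 min, and 1020.2, 1906 and 774 at 30 min. Both groups of 30 min arrays lay above the 10 min arrays of the same treatment without overlap, and experiment 3 with LPS plus IL-10 was the lowest of the 30 min arrays. The mean change of 1445452_at was 1.47 (SE 0.18, limma adjusted p with the block 0.000248).

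The other Traf1 probe set, 1423602_at, had 320.4, 515 and 784 at 10 min, 283, 704 and 607 at 20 min, and 356, 654 and 531 at 30 min with LPS plus IL-10. It had 397, 632 and 685 at 10 min, 384, 643 and 445 at 20 min, and 400.0, 692 and 717 at 30 min with LPS alone. Under both treatments its 30 min arrays overlapped those of 10 min, and the mean change was 0.023 (blocked interval -0.25 to 0.29). Within each of the 6 pairs 1423602_at changed less than 1445452_at, with a difference, 1423602_at minus 1445452_at, of -1.44 on average and of -2.23 to -0.77 in single pairs. This is an unequal change of 2 probe sets of 1 gene on the same arrays, and the position of the probes along the transcript was not known here.

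Nfkbia, which encodes IkB-alpha, was the member with the signal nearest the top of the array. Probe set 1420088_at had 24933, 27959.5 and 18125 at 10 min, 23873, 18858 and 22601 at 20 min, and 27699, 26259 and 21386 at 30 min with LPS plus IL-10. With LPS alone it had 21746, 23842 and 20833 at 10 min, 28355, 24004 and 30887 at 20 min, and 21525, 27217 and 19699.8 at 30 min. Over the 18 arrays it stood between the 99.4 and 99.7 percentile of all signals, and its highest over its lowest signal was 1.7. The brightest probe set of each array had a signal of 35165 to 77919. Whether single probes of 1420088_at were saturated was not tested. Its groups overlapped at 30 and 10 min, 3 of 6 pairs were higher at 30 min, and the mean change was 0.066 (blocked interval -0.17 to 0.30).

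A flat course at 30 against 10 min held for that probe set and not for Nfkbia as a gene. With LPS alone the 20 min arrays of 1420088_at lay wholly above its 10 min arrays, as in 3.39% of all tested probe sets. That change was 0.32 (blocked interval -0.010 to 0.65). It was 0.30 in the blocked fit without the LPS 20 min arrays of experiments 2 and 3. With LPS plus IL-10 the change at 20 against 10 min was -0.10 (-0.43 to 0.23). Probe set 1448306_at had 9667, 10934 and 6525 at 10 min, 11017, 11768 and 5843 at 20 min, and 15088, 15893 and 8895 at 30 min with LPS plus IL-10. With LPS alone it had 9171, 10974 and 6518 at 10 min, 11961, 11325 and 5488 at 20 min, and 12389, 16890.1 and 8766 at 30 min. Each 30 min array was brighter than the 10 min array of its experiment and treatment, by 0.43 to 0.64, and the mean change of 0.52 passed with the block (SE 0.082, limma adjusted p 0.00336). Probe set 1449731_s_at, at 4824 to 14404, behaved alike, with a change of 0.51 (SE 0.088, 0.00701) and pairs between 0.47 and 0.57.

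The remaining probe sets of Nfkbia did not pass. Probe set 1420089_at, with 424 to 1388, changed by 0.63 (SE 0.14, limma adjusted p with the block 0.0577), and 1438157_s_at, with 11897 to 24544, by 0.27 (SE 0.092, 0.421), each higher at 30 min in 6 of 6 pairs. In each of the 6 pairs 1448306_at changed more than 1420088_at, by 0.45 on average, and 1449731_s_at did so by 0.45. The suffix _s_at marks probe sets that may read more than 1 transcript family and _a_at those that read alternative transcripts of 1 gene, and neither 1420088_at nor 1448306_at carries one.

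**Figure D2:**
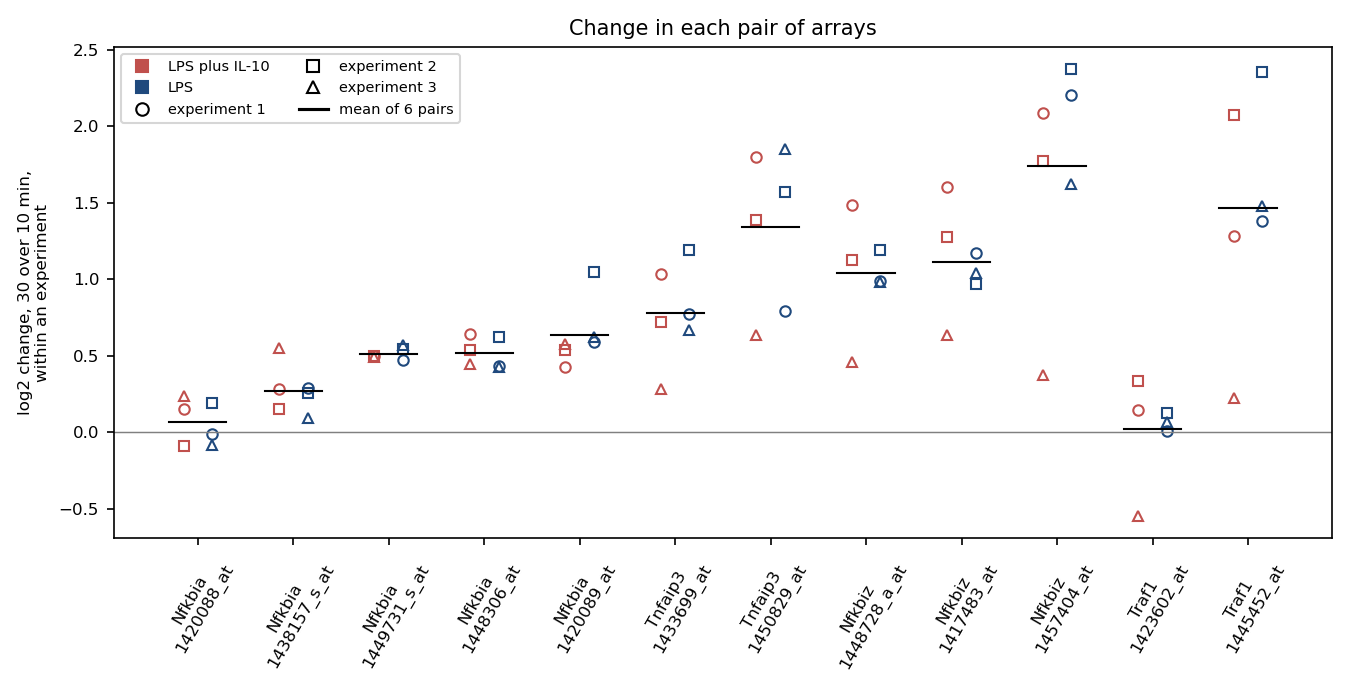
Log2 change at 30 over 10 min within each experiment (vertical axis) for 12 probe sets of Nfkbia, Tnfaip3, Nfkbiz and Traf1, with LPS plus IL-10 left of LPS, a symbol for each experiment and a line at the mean of the 6 pairs. Nfkbia 1420088_at scatters around 0 at 0.066, Nfkbia 1449731_s_at holds a narrow band at 0.51, and Nfkbiz 1457404_at reaches 2.37.

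Set against the bright Nfkbia probe set on the same arrays, the changes of Nfkbiz 1417483_at and 1457404_at and Tnfaip3 1433699_at were larger in 6 of 6 pairs, by 1.05, 1.67 and 0.71 on average. Traf1 1445452_at exceeded it in 5 of 6 pairs. Against Nfkbia 1448306_at the lead shrank to 0.60 for Nfkbiz 1417483_at, still in 6 of 6 pairs, and to 0.26 for Tnfaip3 1433699_at, in 5 of 6. The contrast between Nfkbia and the risers therefore had a size that depended on the Nfkbia probe set read. It is given as a description, since the genes were picked with such a contrast in view.

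The other IkB proteins and the adaptors gave smaller changes, none of which passed. Nfkbie, which encodes IkB-epsilon, changed by 0.42 in 1458299_s_at (blocked interval 0.14 to 0.69, 6 of 6 pairs higher) and by 0.28 in 1431843_a_at (-0.05 to 0.60). Bcl3, a nuclear IkB protein that binds p50 and p52 dimers, changed by 0.35 (0.16 to 0.53, 6 of 6 pairs higher, limma adjusted p 0.136 with the block). Nfkbib, which encodes IkB-beta, changed by 0.15 in 1421266_s_at (-0.072 to 0.38). Its second probe set, 1446718_at, reached the median signal on 3 of 18 arrays, at 6.1 to 139, and its interval of -1.30 to 0.41 is too wide to read.

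Nfkbid, which encodes the nuclear IkB protein IkB-NS, changed by 0.19 (-0.12 to 0.49), with 5 of 6 pairs higher. Its mean signal at 10 and 30 min was 695 and 950 with LPS alone. With LPS plus IL-10 it was 702 and 677, where experiment 3 went from 902 to 473. Tnip1, which encodes the A20-binding protein ABIN-1, changed by 0.18 (0.013 to 0.34). Birc3, which encodes the ubiquitin ligase cIAP2, changed by 0.25 in 1421392_a_at (0.059 to 0.44) and by 0.34 in 1425223_at (-0.11 to 0.78), the second at a signal of only 85.4 to 206. In all, 20 of the 21 probe sets had a higher mean at 30 min, with a median change of 0.35 against -0.025 over all tested probe sets, and 13, of 7 genes, were higher in all 6 pairs, against 2.8% of all tested probe sets. Several of these smaller values depended on which experiments entered the fit. Without experiment 1 Tnip1 changed by 0.071, Birc3 1421392_a_at by 0.11 and Nfkbid by 0.10 in the blocked fit. Without experiment 2 Nfkbie 1458299_s_at and 1431843_a_at changed by 0.24 and 0.044, Nfkbid by 0.045, Nfkbib 1421266_s_at by 0.10 and Birc3 1425223_at by 0.20. Without experiment 3 Nfkbid changed by 0.41. The arrays are scaled to a common mean, so a change is relative to the other RNAs of the sample, and in bulk RNA fewer cells of a type and less RNA per cell cannot be told apart.

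**Figure D3:**
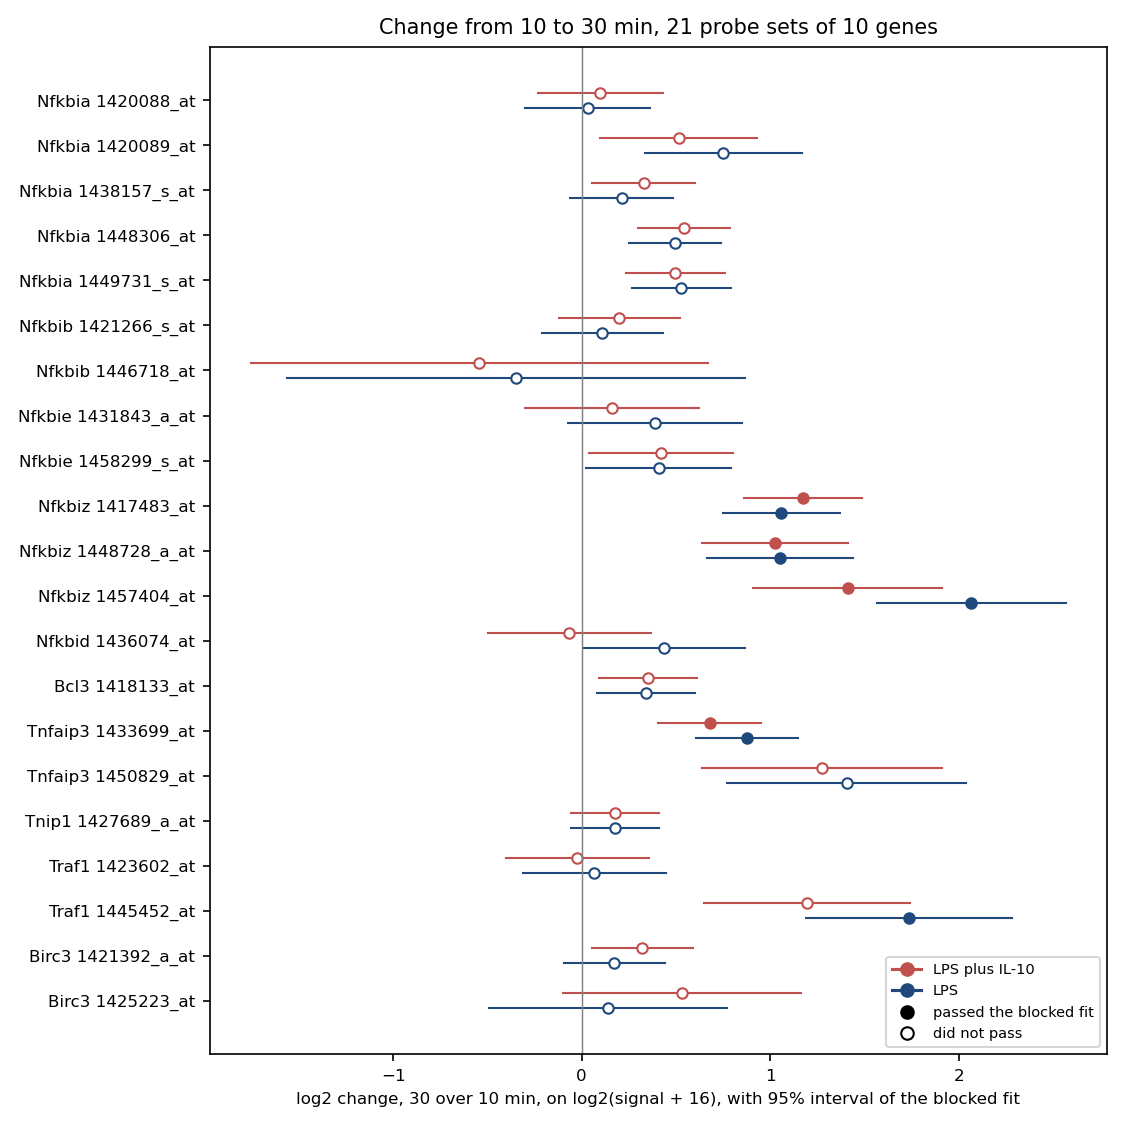
Log2 change at 30 over 10 min (horizontal axis) of the 21 probe sets, LPS plus IL-10 above LPS in each row, with 95% intervals of the blocked fit and filled points where the adjusted p was under 0.05. Filled points are the 3 Nfkbiz probe sets and Tnfaip3 1433699_at under both treatments and Traf1 1445452_at with LPS alone.

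Within each treatment fewer probe sets passed. The 30 min arrays lay wholly above the 10 min arrays in 2 probe sets with LPS plus IL-10, Traf1 1445452_at and Birc3 1425223_at. With LPS alone they did so in 4, Nfkbiz 1448728_a_at and 1457404_at, Nfkbid and Traf1 1445452_at. Of all tested probe sets this held for 2.21% with LPS plus IL-10 and 2.02% with LPS alone. By limma's adjusted p with the block, 4 probe sets passed with LPS plus IL-10, the 3 of Nfkbiz and Tnfaip3 1433699_at. Under that treatment the 30 and 10 min arrays of each of these overlapped. Of all tested probe sets 0.196% were higher by that rule and 0.0443% without the block, where no member passed. At an unadjusted p under 0.05 without the block there were 4, against 2.31% of all tested probe sets in either direction. The changes of those that passed were 1.17, 1.03 and 1.41 for Nfkbiz 1417483_at, 1448728_a_at and 1457404_at and 0.68 for Tnfaip3. With LPS alone, 5 passed with the block, against 0.107% of all tested probe sets, and none did without it, against 0.0185%. At an unadjusted p under 0.05 without the block there were 4, against 1.34% in either direction. Those that passed were the same 3 of Nfkbiz, at 1.06, 1.05 and 2.07, Tnfaip3 1433699_at at 0.88 and Traf1 1445452_at at 1.74.

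Traf1 1445452_at changed by 1.20 with LPS plus IL-10 (limma adjusted p with the block 0.0817), against 1.74 with LPS alone (adjusted p 0.00482). The difference between its changes under the 2 treatments was -0.54 (blocked interval -1.32 to 0.23, adjusted p 1.0), so a difference was not shown. The smallest of the 6 changes came from experiment 3 with LPS plus IL-10 for 6 of the 8 probe sets that passed and for 11 of all 21. How often this held over all tested probe sets was not counted. With LPS plus IL-10 Traf1 1445452_at rose by 1.68 when experiment 3 was left out (limma adjusted p with the block 0.00675). It rose by only 0.76 when experiment 2 was left out, and these were the highest and lowest values of all settings tried.

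The calls depend on single experiments. Averaged over treatments, the blocked fit kept all 8 probe sets without experiment 3, 5 without experiment 1 and 2 without experiment 2. Without experiment 2 only Nfkbiz 1417483_at and 1457404_at passed (limma adjusted p with the block 0.0118 and 0.0248). Of those that then missed the threshold, Nfkbiz 1448728_a_at changed by 0.98, Tnfaip3 1433699_at and 1450829_at by 0.69 and 1.27, Nfkbia 1448306_at and 1449731_s_at by 0.49 and 0.51, and Traf1 1445452_at by 1.09, against 1.47 with all 3 experiments. Without experiment 1 Nfkbia 1448306_at and 1449731_s_at and Tnfaip3 1450829_at dropped out. Their changes stayed near the full values, at 0.51, 0.53 and 1.36. Within the single treatments no member passed the blocked fit without experiment 1 or without experiment 2. In the limma fit without a block, leaving out experiment 3 let Nfkbiz 1457404_at pass within each treatment and Nfkbiz 1457404_at and 1448728_a_at pass averaged over treatments, and leaving out experiment 1 or 2 let none pass.

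At 20 against 10 min no member passed. Averaged over treatments 0 of the 21 passed with the block and 0 without it, where 0.048% and 0.0222% of all tested probe sets were called higher by limma's adjusted p. At an unadjusted p under 0.05 the counts were 6 and 1, all higher at 20 min, against 8.31% and 2.73% of all tested probe sets in either direction. The nearest was Nfkbia 1420089_at, at 0.72 (SE 0.14, limma adjusted p with the block 0.0809), and Nfkbiz 1457404_at, at 0.72 (SE 0.17, 0.267), passed once experiment 3 was left out. Tnfaip3 1433699_at changed by 0.15 and Traf1 1445452_at by 0.56 (blocked intervals -0.037 to 0.35 and 0.17 to 0.95), against 0.78 and 1.47 at 30 against 10 min.

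The treatments separately gave none at 20 min either. Of all tested probe sets limma called 0.0333% higher with the block and 0.0111% without it under LPS plus IL-10, and 0.0148% and 0.0% under LPS alone. With LPS plus IL-10, 3 members had an unadjusted p under 0.05 in limma with the block and 0 without it, against 5.44% and 1.52% of all tested probe sets in either direction. With LPS alone the counts were 4 and 1, against 9.18% and 3.31%, so that 1 of 21 without the block is near the background. A pair of arrays, LPS at 20 min in experiments 2 and 3, stood apart by their lower quartiles of signal, 38.7 and 34.1 against 21.9 to 31.1 elsewhere. Without this pair the change with LPS alone rests on 1 array at 20 min, whose spread is taken from the other groups, and no member passed. Nfkbia 1420089_at then gave 0.74 in the blocked fit against 1.09 with all arrays, and Nfkbiz 1457404_at gave 0.82 against 1.05 with all arrays.

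No member passed the adjusted test for IL-10 at any of the times. Of all tested probe sets 0.0% passed it at 10 min by either fit, 0.0185% with and 0.00739% without the block at 20 min, and 0.0443% and 0.0111% at 30 min. At an unadjusted p under 0.05 in limma there were 0 members at 10 min with the block and 0 without it, against 3.57% and 1.13% of all tested probe sets in either direction. At 20 min the counts were 3 and 0, against 7.81% and 3.0%, and at 30 min 3 and 1, against 2.82% and 1.16%, all lower with IL-10. How the IL-10 effect differed between 30 and 10 min was called for no member either, where 0.0185% of all tested probe sets passed with the block and 0.0037% without it. None of the members had an unadjusted p under 0.05 for it by either limma fit, against 2.44% and 0.979% of all tested probe sets.

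The intervals of the blocked fit, given here, limit what an IL-10 effect could have been under that fit. At 30 min the difference, LPS plus IL-10 minus LPS, lay at 0.14 (-0.19 to 0.47) for Nfkbia 1420088_at and at 0.072 (-0.17 to 0.32) for 1448306_at. For Tnfaip3 1433699_at it was -0.12 (-0.39 to 0.15), and for Nfkbiz 1417483_at -0.18 (-0.49 to 0.13). Bcl3 gave 0.21 (-0.048 to 0.47), Tnip1 -0.0025 (-0.24 to 0.23) and Birc3 1421392_a_at 0.12 (-0.15 to 0.39). Nfkbie 1458299_s_at gave -0.13 (-0.52 to 0.25) and Nfkbib 1421266_s_at 0.25 (-0.07 to 0.57). For each of these probe sets the blocked interval stays within 1 log2 unit of 0. For Nfkbia 1420088_at the interval without the block was wider, at -0.23 to 0.52.

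The 3 members with an unadjusted p under 0.05 at 30 min were Nfkbiz 1457404_at, Nfkbid and Traf1 1445452_at. Nfkbid had 853, 706 and 473 with LPS plus IL-10, against 923, 1088 and 838 with LPS alone, a difference of -0.51 (-0.94 to -0.08, limma adjusted p 1.0 with the block). Each experiment was lower with IL-10, as in 13.9% of all tested probe sets at 30 min, and the groups overlapped. Traf1 1445452_at had 798, 1336 and 365 with LPS plus IL-10, against 1020.2, 1906 and 774 with LPS alone, a difference of -0.64 (-1.18 to -0.089, 1.0). It was lower with IL-10 in each experiment at 30 min and again at 20 min, where this held for 16.1% of all tested probe sets. The difference at 20 min was -0.72 (-1.27 to -0.17) with all arrays and -0.28 without the LPS arrays that stood apart.

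At 20 min Nfkbia 1420088_at had 23873, 18858 and 22601 with LPS plus IL-10, against 28355, 24004 and 30887 with LPS alone, and these groups did not overlap, as held for 2.98% of all tested probe sets that were lower with IL-10. The difference was -0.35 (-0.68 to -0.019, limma adjusted p 0.631 with the block), and without the LPS arrays that stood apart it was -0.33 (-0.75 to 0.091). The third with an unadjusted p under 0.05 at 20 min was Nfkbia 1420089_at, at -0.42 (-0.83 to -0.0034), and -0.07 without those arrays. Its signals were 782, 735 and 1004 with LPS plus IL-10, against 751, 1388 and 1340.4 with LPS alone, of which the last 2 are from the arrays that stood apart.

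**Figure D4:**
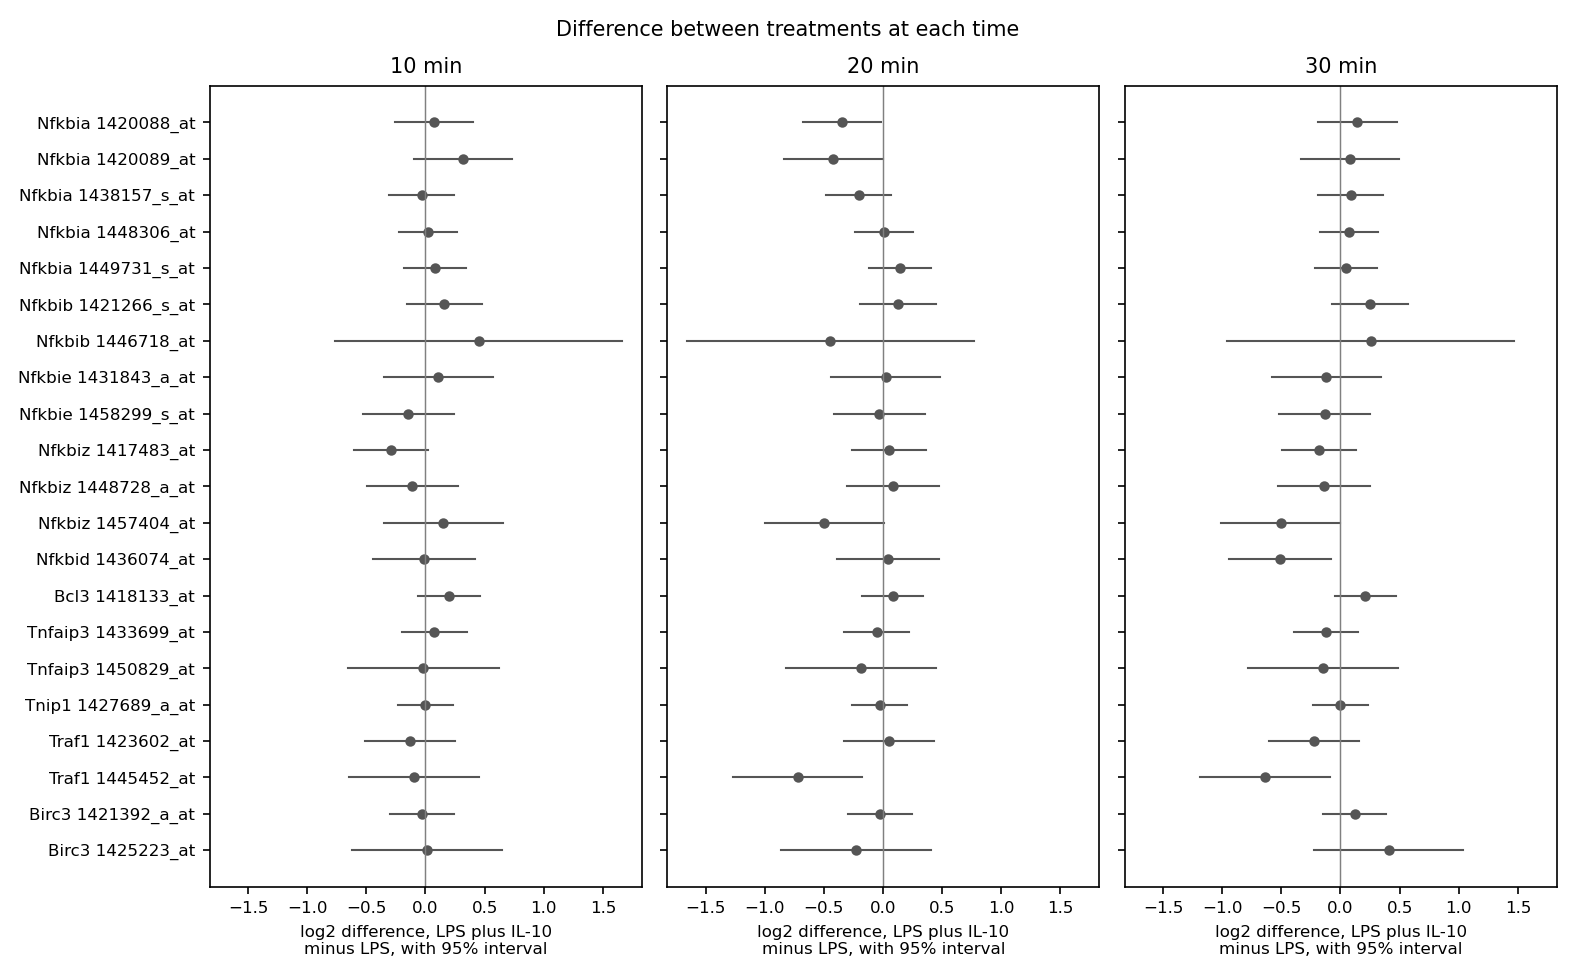
Log2 difference, LPS plus IL-10 minus LPS, at 10, 20 and 30 min for the 21 probe sets, with 95% intervals of the blocked fit. No member passed an adjusted p of 0.05. Traf1 1445452_at lies at -0.72 at 20 min and -0.64 at 30 min, and Nfkbid at -0.51 at 30 min.

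Most members differed more between experiments than with time or treatment. The experiment's share of the variance of the log2 signals over the 18 arrays had a median of 68.8% over the 21 probe sets and of 37.9% over all tested probe sets. Time had a median share of 15.6% against 7.00% over all tested, and treatment 0.773% against 1.36%. For Bcl3 the experiment took 91.1%, for Tnip1 91.1% and for Birc3 1421392_a_at 88.5%, whereas for Nfkbid it took 1.87%, for Birc3 1425223_at 6.52% and for Nfkbia 1420088_at 12.8%. These shares are a description of 3 experiments.

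Which experiment was the dimmest differed between members, and how often each order held over all tested probe sets was not counted. Nfkbiz (all 3 probe sets), Tnfaip3 (both) and Nfkbia 1438157_s_at, 1448306_at and 1449731_s_at were dimmest in experiment 3 in all 6 groups. Over the 6 arrays of an experiment, Tnfaip3 1433699_at averaged 3574, 3096 and 1343 in experiments 1, 2 and 3, and Nfkbiz 1417483_at 3491, 4702 and 1735. Nfkbib 1421266_s_at, both Nfkbie probe sets, Bcl3, Tnip1, Traf1 1423602_at and Birc3 1421392_a_at were dimmest in experiment 1 in all 6 groups instead. Tnip1 averaged 2113, 3155 and 4049, and Bcl3 580.4, 1594 and 725. Bcl3 was brightest in experiment 2 and Tnip1 in experiment 3 in all 6 groups. The remaining probe sets were dimmest in no single experiment throughout all 6 groups.

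**Figure D5:**
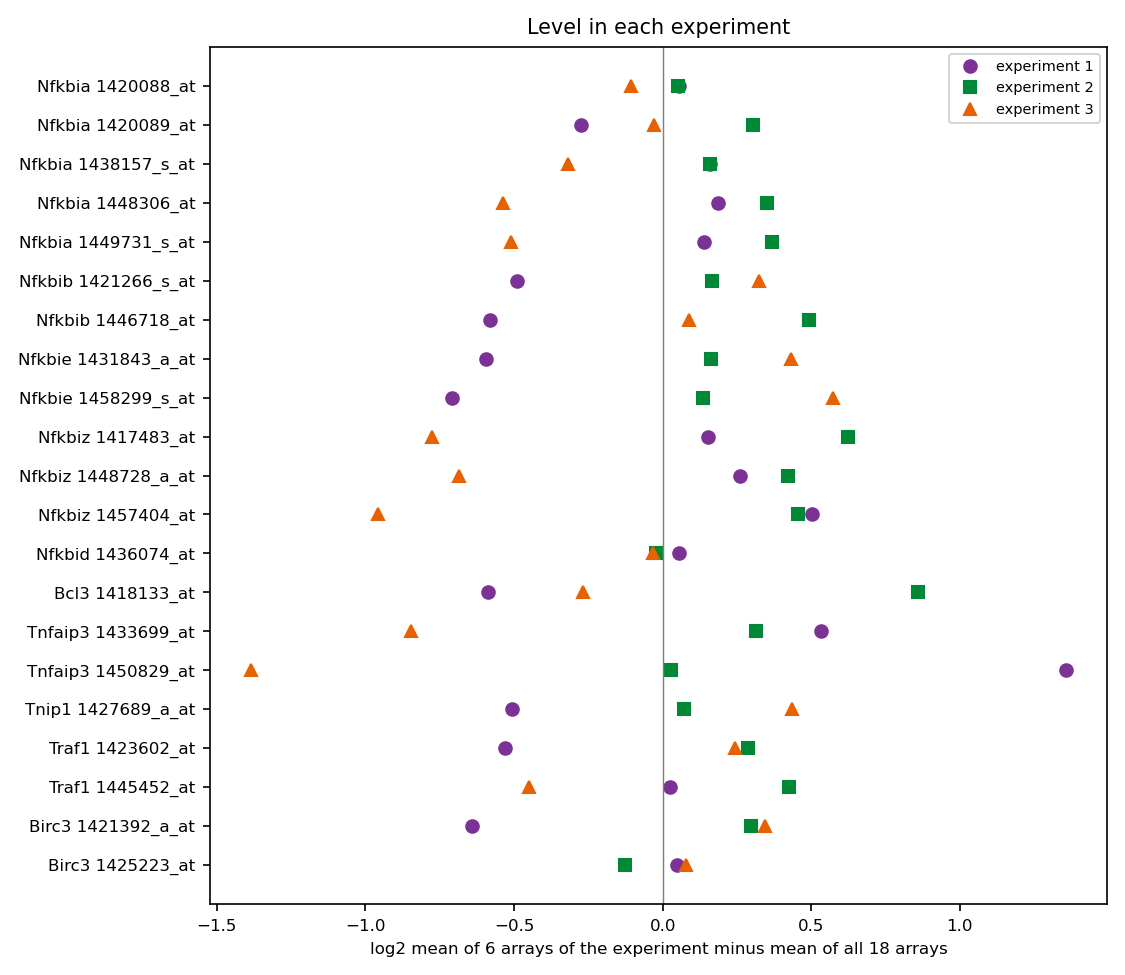
Log2 mean signal of the 6 arrays of each experiment minus the mean of all 18 arrays (horizontal axis) for the 21 probe sets, 1 symbol and colour for each experiment. Experiment 3 lies lowest for Nfkbiz and Tnfaip3, with Tnfaip3 1450829_at at -1.39, and experiment 1 lies lowest for Nfkbie, Bcl3, Tnip1 and Birc3 1421392_a_at.

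Genes whose signals ran most like those of 3 members over the 18 arrays are named by Pearson correlation, with no p, since arrays of an experiment share its level and scale. For Nfkbiz 1417483_at they were Zc3h12c (0.904), Ptgs2 (0.899), Flrt3 (0.890), Sgk1 (0.884) and Cd83 (0.875). For Tnfaip3 1433699_at they were Tnf (0.973), Phlda1 (0.953), Id1 (0.927), Zfand5 (0.921) and Ccl7 (0.919), where Tnf and Ccl7 encode secreted inflammatory proteins. For Nfkbia 1420088_at they were Lpl (0.850), Rtn4 (0.839), Tmsb10 (0.836), Cd44 (0.836) and Ctnnb1 (0.830), none of which is in the other lists.

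Other genes of the NF-kB pathway were read as a list. Of 24 genes for NF-kB subunits, IkB kinases and other regulators 20 had a tested probe set. None was called in any comparison by limma with or without the block. At 30 against 10 min, averaged over treatments, 0.436% and 0.0591% of all tested probe sets were called in either direction, so no call among 20 is near that share. Of these 20, 14 had a higher mean at 30 than at 10 min, against 43.3% of all tested probe sets. The median change of the 20 was 0.031, against -0.025 over all tested probe sets. The largest changes were 0.38 for Tank, an adaptor of TRAF proteins, 0.28 for Rel and 0.25 for Relb, which encode NF-kB subunits, and 0.19 for Otud7b, a deubiquitinase (limma adjusted p with the block 0.424, 0.749, 0.779 and 0.873). Of 8 early LPS-induced genes all 8 had a higher mean at 30 min, 8 passed limma's adjusted test with the block and 3 without it, against 0.351% and 0.0554% of all tested probe sets, and the median change was 1.80. The largest were Cxcl1 and Cxcl2, neutrophil chemokines, at 2.62 and 2.40, Ptgs2, the inducible cyclooxygenase, at 1.93, and the cytokine gene Il1b at 1.85. The largest changes among the members' brightest probe sets, Traf1 1445452_at at 1.47 and Nfkbiz 1417483_at at 1.12, were below these 4. At 10 min Traf1 1445452_at was dimmer than the gene's other probe set.

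The arrays had median signals of 75.8 to 121.2. Checked against markers of the labelled cell type, 8 of 8 macrophage genes were at or above the median signal on every array, with a summed signal of 106046 to 189889. Of 7 granulocyte markers 6 had a probe set, with sums of 5526 to 13829, and 5 of the 6 were also at or above the median on every array. The 4 stromal markers summed to 1578 to 3602, and 3 of them were so too. Lymphocyte markers, 4 of 5 with a probe set, summed to 50.1 to 392, and 3 dendritic cell markers to 120.2 to 362. None of these last markers reached the median on every array. At 30 and at 10 min the granulocyte sums were 6023 to 13829 and 5526 to 11945 with LPS plus IL-10, and 5706 to 13649 and 5734 to 12323 with LPS alone, so the times overlapped.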

How the data were processed

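RNA was labelled as biotin cRNA for Affymetrix arrays per the labels' protocols. The deposited intensities are linear, with a column for each array, and come from GCOS 1.4 per the submitters' processing notes. How probe signals were summarised was not given in the sources used here. After trimming 2% at each end their mean was 500.0 on every array. No detection calls were used.

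Names come from the platform annotation, whose symbols may be outdated: 34958 probe sets had 1 symbol, 932 several and 9211 none. The 64 controls were not tested. All 10 genes matched RefSeq by gene ID. The members, lists and tests were chosen with earlier results of these data known.

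Values were log2(signal + 16), which understates folds of dim probe sets. Testing required a signal at or above the array median on 3 or more arrays. limma 3.58.1 in R 4.3.3 (lmFit, then eBayes with a trend on intensity) used all 18 arrays, n = 3 in each group, two-sided, with p adjusted by Benjamini-Hochberg for the 27062 probe sets at a threshold of 0.05. The reported design had no block (12 residual degrees of freedom). Arrays of the same experiment deviated together (correlations of 0.201 to 0.643 over 45 pairs, against -0.471 to 0.065 over 90 pairs of other arrays), as the labels imply, so the numbers pair the samples. Where a block for the experiment (10 degrees of freedom) changes a call, its value is printed too. The script was tested on simulated data. Precision is limited by the number of arrays. No 2 arrays shared more than 104 equal values. Alternatives tried were a 75th percentile filter and none, pseudocounts of 1 and 64, quantile normalisation, no trend, only the compared groups, each experiment left out, and 2 outlying LPS arrays left out. A gene's brightest probe set has the highest mean log2 signal.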

Additional observations from a re-analysis of the deposited data

Results flagged for a closer look

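Nfkbiz 1457404_at had an IL-10 difference of opposite sign at 10 min and at the later times in every experiment. The difference, LPS plus IL-10 minus LPS, was 0.15 at 10 min, -0.50 at 20 min and -0.50 at 30 min, with 3 of 3 experiments above 0 at 10 min and 3 of 3 below 0 at 20 and at 30 min. Of all tested probe sets 14.0% were higher with IL-10 in all 3 pairs at 10 min. At 20 and 30 min 16.1% and 13.9% were lower in all 3. Without the LPS arrays of 20 min in experiments 2 and 3, which stood apart by their lower quartiles, the 20 min value was -0.27 in the blocked fit (-1.04 to 0.50). Leaving out 1 experiment at a time gave -0.75 to -0.22 at 30 min, with the value nearest 0 without experiment 3. At 30 min its signals were 3121, 2511 and 526 with LPS plus IL-10, against 3155, 3387 and 1121 with LPS alone, so those of experiment 1 were nearly equal. The change of the difference at 30 against 10 min was -0.66 (blocked interval -1.37 to 0.054, limma adjusted p 1.0 with the block and 1.0 without it), and that at 20 against 10 min was not tested. The gene's other probe sets, 1417483_at and 1448728_a_at, had 0.11 and -0.028 for the change at 30 against 10 min.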

How the results depend on the processing

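Without the block no member passed at 30 against 10 min. With LPS plus IL-10 the count was 4 with the block, 5 with the block and quantile normalisation, 6 with the block and without the 2 outlying LPS arrays (20 min, experiments 2 and 3), 0 to 1 without each experiment in turn and 0 to 6 with the block and without each experiment. With LPS alone these counts were 5, 5, 6, 0 to 1 and 0 to 6. Averaged over treatments they were 8, 9, 9, 0 to 2 and 2 to 8, and at 20 against 10 min, averaged or with LPS alone, they were 0 except for 0 to 1 with the block and without each experiment. Over all tested probe sets the calls at 30 against 10 min averaged over treatments were 118 with the block and 16 without it, with LPS plus IL-10 61 and 12, and with LPS alone 30 and 5. At 20 against 10 min they were 16 and 6, 9 and 3, and 4 and 0 in the same order. For the IL-10 effect they were 5 and 2 at 20 min and 12 and 3 at 30 min, and 5 and 1 for its change. No member was called for the IL-10 effect at any time or for its change in any setting tried. Quantile normalisation or leaving out the outlying arrays without the block, pseudocounts of 1 and 64, no filter, the 75th percentile filter, no intensity trend and fits on the compared groups alone left the counts of members called at 0. Of 84 single values set against 17 other settings, 15 changed sign in at least 1 setting and none of these was called. The 75th percentile filter left 76 of the 84. Of the 21 members it left 19 tested, and leaving out experiment 2 or the outlying arrays left 20. With no detection calls, dim signals have no measured background to be set against.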
